A study of Mus musculus with 2 samples.

Results

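The Hox genes encode homeodomain transcription factors that lie in 4 clusters of the mouse genome, Hoxa, Hoxb, Hoxc and Hoxd. They were taken here as every gene probe whose accession maps to a symbol of the form Hoxa, Hoxb, Hoxc or Hoxd followed by a number. This gave 39 genes, read by 43 probes and 61 spots, out of 20013 named genes on the array. All 39 Hox genes of the gene table had at least 1 probe. The samples were Cy3-labelled kidney RNA of diabetic C57BL/6J-background males, hybridised to 1 Agilent array per group. The TG+STZ array carried RNA of Sirt1-overexpressing transgenic mice and the WT+STZ array RNA of wild-type mice. Sirt1 is an NAD-dependent protein deacetylase. Both groups were given streptozotocin (STZ), which kills pancreatic beta cells, in 100 mmol/l citrate buffer at 8 weeks of age and were killed at 32 weeks. The RNA came from glomerular regions dissected from the kidney, and no nondiabetic array was analysed here. The sources used here do not give the transgene's promoter or how many mice stand behind each array. The title of the series names renal tubular Sirt1. With 1 array per group there is no replicate check, and no p-value or spread between mice can be given.

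Hox proteins give cells of the embryo their position along the body axis. Within a cluster the genes lie in the order of their paralogue number, and genes with low numbers are used further toward the head than genes with high numbers. Genes of the same number in different clusters descend from 1 ancestral gene and often share functions. In the mouse kidney, paralogues 10 and 11 act in the embryo: Hoxa11, Hoxc11 and Hoxd11 are together needed for the kidney to form, and the paralogue 10 genes for its stroma. Hoxb7 is a gene of the ureteric bud and of the collecting duct that grows from it. Many adult cells keep the set of Hox genes that was active in their embryonic origin, held by Polycomb and trithorax proteins.

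Hox transcripts from the inner part of each cluster were measured in both groups, and those at the cluster ends mostly were not. Of the 39 genes, 32 had a probe well above background on both arrays and 7 on neither. Over all named genes, 79.8% had such a probe on both arrays. Every member of paralogue groups 2 to 11, of all clusters that have one, was detected on both. None of the 4 genes of paralogue group 13 was detected on either array, namely Hoxa13, Hoxb13, Hoxc13 and Hoxd13. Hoxa13 and Hoxd13 shape digits and the lower urogenital tract, Hoxb13 is a prostate gene and Hoxc13 a hair gene. In paralogue group 12, Hoxd12, a limb gene, was not detected. Hoxc12 was, at 13.7 units in TG+STZ against 17.3 units in WT+STZ, close to the lowest signals called well above background (9.70 and 10.6 units). At the other end of the clusters, Hoxb1, which patterns the hindbrain, and Hoxd1 were not detected. The 8 probes of the 7 undetected genes read 2.02 to 4.26 units in TG+STZ and 2.24 to 3.26 in WT+STZ. Negative control spots had medians of 2.20 and 2.43 units on these arrays. The Hoxb1 probe is spotted 10 times and was dim at every spot, from 1.99 to 2.72 units in TG+STZ and from 2.19 to 3.02 in WT+STZ. A dim probe sets only a bound on its transcript, and no fold change is given for these 7 genes. The grid of differences by cluster and paralogue number shows the undetected genes as hatched cells at its left and right edges.

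**Figure D1:**
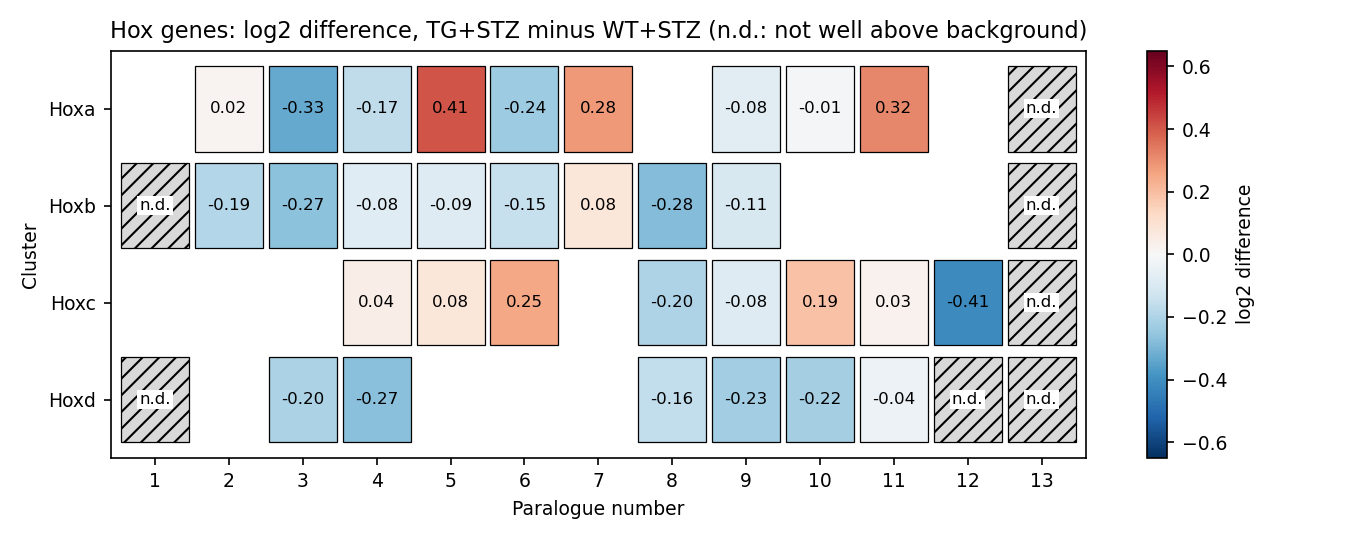
Grid of 38 of the 39 Hox genes, with paralogue number on the horizontal axis and cluster on the vertical axis. Coloured cells carry the log2 difference, TG+STZ minus WT+STZ, of 31 genes measured on both arrays, and the 7 hatched cells (n.d.) are genes not well above background on either array, which include all 4 genes of paralogue number 13.

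The upstream sequences of genes on each side of these detection boundaries are shown because detection started or ended there along the Hoxa and Hoxd clusters. They are the 250 bases before the gene start in RefSeq (GRCm38.p6), 5′ to 3′ on the strand of the gene, with CG dinucleotides in capitals. The boundary of Hoxa lies between Hoxa13 (chr6:52260881-52261130 on the minus strand) and Hoxa11 (chr6:52245811-52246060 on the minus strand). Those of Hoxd lie between Hoxd12 (chr2:74674763-74675012 on the plus strand) and Hoxd11 (chr2:74682073-74682322 on the plus strand, the start nearer Hoxd10 of 2 listed), and before Hoxd1 (chr2:74762730-74762979 on the plus strand). Hoxd4 (chr2:74721728-74721977 on the plus strand) stands for the detected side there, since the listed start of Hoxd3, also detected, lies before that of Hoxd4.
Hoxa13: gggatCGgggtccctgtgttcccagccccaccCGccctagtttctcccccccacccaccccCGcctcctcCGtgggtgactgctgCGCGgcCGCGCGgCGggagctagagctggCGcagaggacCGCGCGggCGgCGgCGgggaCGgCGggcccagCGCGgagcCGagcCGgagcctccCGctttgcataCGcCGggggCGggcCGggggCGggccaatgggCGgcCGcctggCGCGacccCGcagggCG
Hoxa11: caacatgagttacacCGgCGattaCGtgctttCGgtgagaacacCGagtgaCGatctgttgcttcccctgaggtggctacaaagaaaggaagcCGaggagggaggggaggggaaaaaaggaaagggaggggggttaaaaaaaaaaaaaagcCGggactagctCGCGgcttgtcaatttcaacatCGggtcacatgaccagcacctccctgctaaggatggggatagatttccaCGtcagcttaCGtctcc
Hoxd12: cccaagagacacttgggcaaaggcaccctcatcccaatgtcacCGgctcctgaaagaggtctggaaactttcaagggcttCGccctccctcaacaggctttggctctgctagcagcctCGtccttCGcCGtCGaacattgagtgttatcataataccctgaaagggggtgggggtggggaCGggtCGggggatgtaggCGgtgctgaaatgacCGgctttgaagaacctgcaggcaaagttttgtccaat
Hoxd11: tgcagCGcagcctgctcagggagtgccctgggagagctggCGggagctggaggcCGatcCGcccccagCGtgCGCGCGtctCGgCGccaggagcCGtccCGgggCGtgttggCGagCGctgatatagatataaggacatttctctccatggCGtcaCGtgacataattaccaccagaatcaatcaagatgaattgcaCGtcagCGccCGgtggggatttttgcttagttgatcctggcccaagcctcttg
Hoxd4: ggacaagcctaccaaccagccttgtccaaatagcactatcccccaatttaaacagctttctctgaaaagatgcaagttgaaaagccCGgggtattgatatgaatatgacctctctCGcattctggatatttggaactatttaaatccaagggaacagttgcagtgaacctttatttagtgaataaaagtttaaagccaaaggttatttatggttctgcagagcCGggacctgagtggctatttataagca
Hoxd1: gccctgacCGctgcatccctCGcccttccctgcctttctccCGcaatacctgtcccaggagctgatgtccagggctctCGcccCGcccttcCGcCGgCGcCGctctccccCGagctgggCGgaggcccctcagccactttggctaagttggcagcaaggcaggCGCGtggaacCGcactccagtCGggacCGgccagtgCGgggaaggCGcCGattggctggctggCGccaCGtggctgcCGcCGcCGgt

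The window of Hoxa13, not detected, held 35 CG dinucleotides and that of Hoxa11, detected, 13. The window of Hoxd12, not detected, held 10 and the one shown of Hoxd11, detected, 20, while the other listed start of Hoxd11 had 2. Hoxd1, not detected, had 24 and Hoxd4, detected, 3. The undetected gene thus had more CG dinucleotides at the Hoxa boundary and at Hoxd1, and at Hoxd12 the order depended on the start of Hoxd11 that was used. In Hoxb it had fewer, with 7 for Hoxb1, not detected, and 14 for Hoxb4, the nearest detected gene of that cluster with a listed window. Over the 24 Hox windows in the table, which cover 22 of the 39 genes, the median was 12.5, against 6 over all 32851 windows of the same length. The 5 windows of undetected genes had a median of 24 (7 to 35) and the 19 windows of detected genes a median of 12 (2 to 28), and these ranges overlap. The letters TGATTNAT, a motif bound by PBX and HOX proteins together, were searched on both strands. They occurred in 2 of the 24 Hox windows, those of Hoxa2 and Hoxd11, and in 2.82% of all windows. A match is a run of letters and not a measured binding site.

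Between the groups, Hox signals were similar, with a tilt to lower values in TG+STZ. Differences are log2 values of TG+STZ minus those of WT+STZ, after each array was centred on the 75th percentile of its gene spots. None of the 32 measured Hox genes reached a 2-fold difference in either direction, where 0.52% of all 15975 measured genes passed 2-fold upward and 0.469% downward. At 1.5-fold 1 Hox gene was called downward, where 1.92% of all genes were, and 0 upward, where 1.75% of all genes were. The median difference over the 32 genes was -0.10, against 0.00 over all measured genes. It ran from -0.15 to -0.07 over the alternative settings that kept these 32 genes. Without the filter on dim probes, which counts in the 7 undetected genes at signals near the negative controls, it was -0.16. In all, 22 of the 32 genes were lower in TG+STZ and 10 were higher, where 49.1% of all genes were lower and 50.9% higher. Under normexp background correction, which also lowers the median of all genes by 0.05, 26 were lower and 6 higher, and 63.2% of all genes were lower. The median absolute difference of the Hox genes was 0.191, against 0.095 for all genes. Under the 12 alternative settings the Hox median stayed below 0, but several of them could not test the tilt. The value table, the laxer flag and outlier spots kept left the Hox median at -0.098. Centring on the median, on the percentile of detected probes or on spike-ins shifts all genes alike. The Hox median then stayed 0.10 below that of all genes (-0.10076 each time).

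The error given after ± is that of the scanner software for the spots of both arrays. It was 0.20 to 0.21 for most Hox genes, is not repeated below at that size, and covers a single hybridisation. Of the 32 genes, 9 were lower in TG+STZ by more than this error and 4 were higher by more than it. Among all measured genes, 13.3% were lower and 10.4% higher by more than their error. The probe of Hoxa11, spotted 10 times, gives a further view of the scatter within an array, and it is described with the Hoxa genes. The central 95% of all measured genes ran from -0.52 to 0.49.

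**Figure D2:**
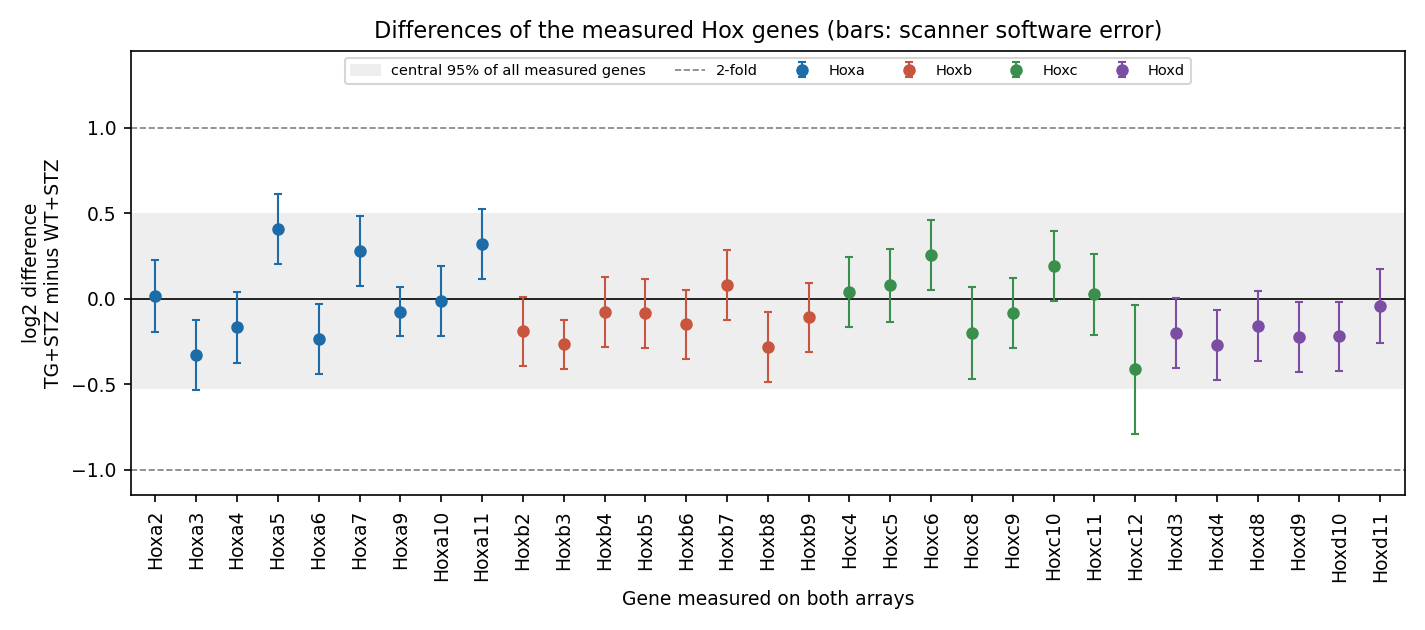
Log2 difference, TG+STZ minus WT+STZ (vertical axis), of 31 Hox genes measured on both arrays, coloured by cluster. Bars are the scanner software error, the grey band holds the central 95% of 15975 measured genes (-0.52 to 0.49) and dashed lines mark 2-fold; no gene reaches a dashed line, and all 6 Hoxd points lie below 0, although Hoxd11 crosses 0 under quantile and loess normalization.

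The Hoxd genes were all slightly lower in TG+STZ. This cluster lies on chromosome 2, and 6 of its 9 genes were measured, with levels of -4.771 to 1.497 in TG+STZ and -4.73 to 1.66 in WT+STZ (log2 signal minus the 75th percentile). Probes differ in brightness for the same amount of RNA, so levels are not ranked between genes. All 6 were below 0, from -0.27 to -0.04, with a median of -0.21, and the SD across the genes was 0.08. The median ran from -0.23 to -0.19 over the alternative settings. Hoxd4, a gene of the hindbrain and neck, had 1419 units in TG+STZ and 1623 in WT+STZ, a difference of -0.27. Hoxd9 had 1596 units against 1767, a difference of -0.23. Hoxd10, a gene of limb motor neurons and 1 of the paralogue 10 genes of the kidney stroma, had 660 units in TG+STZ against 728 in WT+STZ, a difference of -0.22. These 3 exceeded their software errors. Hoxd3, which shapes the first neck vertebrae, had 401 units in TG+STZ and 437 in WT+STZ, a difference of -0.20 that did not exceed its error. Hoxd8 had 5763 units against 6095 (-0.16). Hoxd11, needed with its paralogues for kidney formation, had 74.8 units in TG+STZ and 72.8 in WT+STZ, a difference of -0.04 that turned positive under quantile and loess normalization. The raw signal of Hoxd11 was slightly higher in TG+STZ, and its scaled value slightly lower, because the 75th percentile of the TG+STZ array was also higher by 0.08 on the log2 scale.

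The Hoxb genes were close to 0 or slightly lower. The cluster lies on chromosome 11, and 8 of its 10 genes were measured, with levels of -2.16 to 1.88 in TG+STZ and -1.89 to 1.80 in WT+STZ. Their median difference was -0.13, from -0.15 to -0.10 over the alternative settings that kept to these genes. It was -0.17 without the filter on dim probes, with the undetected Hoxb1 and Hoxb13 counted in. Of the 8 genes, 7 were below 0. Hoxb7, the gene of the ureteric bud and collecting duct, was the exception, with 7512 units in TG+STZ and 6725 in WT+STZ, a difference of 0.08 within its error. Hoxb8, whose loss in mice causes excessive grooming, had 970 units in TG+STZ against 1116 in WT+STZ, a difference of -0.28. Hoxb3, with 457 units in TG+STZ and 524 in WT+STZ, differed by -0.27 ± 0.14, but its 2 probes stood at -0.47 and -0.06. Hoxb3 and Hoxb8 were the 2 Hoxb genes beyond their errors. Hoxb2, which acts in the hindbrain, had 2385 units in TG+STZ and 2579 in WT+STZ, a difference of -0.19. Hoxb4, known for expanding blood stem cells, had 4790 units against 4782 (-0.08). Hoxb6 had 6279 units in TG+STZ against 6600 in WT+STZ (-0.15). Hoxb9 had 1467 units against 1499 (-0.11), and Hoxb5 had 832 units in TG+STZ and 837 in WT+STZ (-0.09). These last 5 differences lay within the error of the software.

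The Hoxa genes spread to both sides of 0. The cluster lies on chromosome 6, and 10 of its 11 genes were measured, with levels of -4.44 to 3.08 in TG+STZ and -4.46 to 2.80 in WT+STZ. The median was -0.04, from -0.14 under normexp to -0.01 over the alternative settings, with 4 higher and 6 lower, and the SD across the genes was 0.31, against 0.08 for the Hoxd genes. Hoxa5, which is needed for the lung and respiratory tract, had 590 units in TG+STZ and 421 in WT+STZ, a difference of 0.41. Hoxa11, the paralogue 11 gene of this cluster, averaged 419 units in TG+STZ and 318 in WT+STZ. Its 10 spots ran from 374 to 471 units (median 418) in TG+STZ and from 292 to 349 (median 318) in WT+STZ, and these ranges did not overlap. Its difference was 0.32 ± 0.20, with an SD of 0.07 over the 10 spots, and all 10 spots were higher in TG+STZ. Spots of 1 probe repeat the same labelled RNA, so they measure the array and not the mice. Over the 253 detected probes with 10 spots the median SD was 0.03.

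Hoxa7, a gene known from blood cells and leukaemia, had 17259 units in TG+STZ and 13453 in WT+STZ, a difference of 0.28. Hoxa3, needed for the thymus and parathyroid, had 943 units in TG+STZ against 1124 in WT+STZ, a difference of -0.33. Hoxa6 had 151 units against 168 (-0.24). These 3 genes, Hoxa5 and Hoxa11 were beyond their errors, and their signs held under every alternative setting that measured them. Hoxa6 was not measured with brighter probes. Each of these genes has 1 probe, and several of the settings return the same value for such a gene and cannot test its sign. Hoxa9, a driver of leukaemia, had 637 units in TG+STZ and 631 in WT+STZ, a difference of -0.08 ± 0.14 from probes at -0.14 and -0.01. Hoxa10, a gene of the uterus and of the embryonic kidney stroma, had 1331 units in TG+STZ and 1271 in WT+STZ (-0.01), and it turned positive under median and spike-in centring. Hoxa4 had 96.1 units against 102 (-0.17). Hoxa2, which sets the identity of the second branchial arch, had 93.8 units in TG+STZ and 87.8 in WT+STZ (0.02), and it turned negative under normexp and with the percentile taken over detected probes.

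The Hoxc genes were split about 0. The cluster lies on chromosome 15, and 8 of its 9 genes were measured, with levels of -7.22 to 1.73 in TG+STZ and -6.81 to 1.48 in WT+STZ. The median was 0.03 with 5 higher and 3 lower, and it was -0.08 under normexp. Hoxc6 had 6794 units in TG+STZ and 5396 in WT+STZ, a difference of 0.25 and the only one of this cluster above 0 by more than its error. Hoxc10, of the paralogue 10 group and also a gene of subcutaneous fat depots, had 731 units in TG+STZ against 606 in WT+STZ, a difference of 0.19. Hoxc12 differed by -0.41 ± 0.38 at signals near background, and was the only one below 0 by more than its error. Hoxc8 and Hoxc9 also mark body position in fat depots. Hoxc8 had 27.4 units in TG+STZ and 29.8 in WT+STZ (-0.20 ± 0.27), and Hoxc9 had 2194 units against 2201 (-0.08). Hoxc5 had 88.1 units in TG+STZ and 79.0 in WT+STZ (0.08). Hoxc4 had 614 units against 565 (0.04). Hoxc11, of the kidney-forming paralogue 11 group, had 45.9 units in TG+STZ and 42.7 in WT+STZ (0.03 ± 0.24). Hoxc4, Hoxc5 and Hoxc11 turned negative under normexp.

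**Figure D3:**
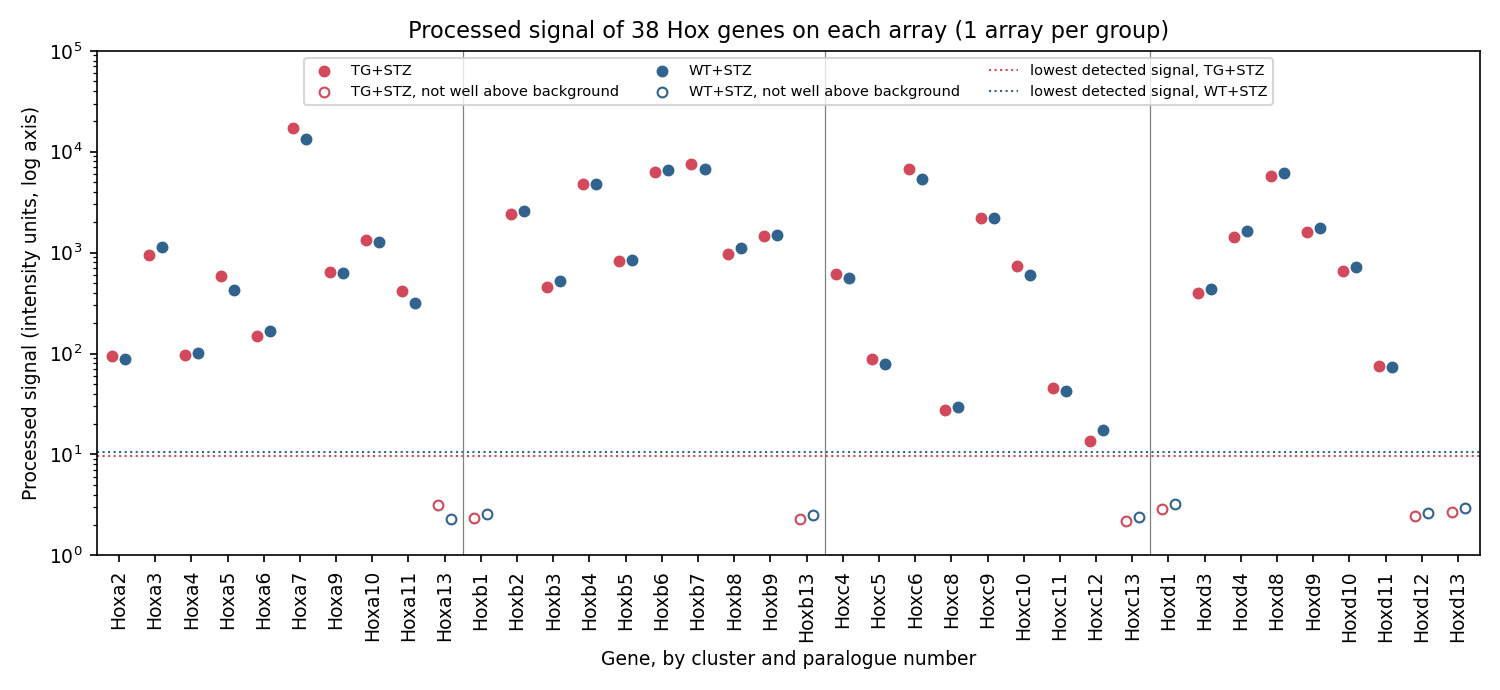
Processed signal in intensity units (log axis) of 38 of the 39 Hox genes, ordered by cluster and paralogue number, with the TG+STZ array left of the WT+STZ array for each gene. Filled points are well above background and open points are not, and dotted lines mark the lowest detected signal of each array (9.70 and 10.6 units); the pair of points of a gene lie close together, while measured genes run from 13.7 to 17259 units in TG+STZ and from 17.3 to 13453 in WT+STZ.

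By paralogue number, genes with the same number lay on both sides of 0 in most groups. Of 10 paralogue groups with at least 2 measured genes, 4 had all members on 1 side of 0. How many groups of this size would do so with unrelated signs was not worked out, so the count does not show whether paralogues move together. Several of the differences lay within their software errors. Paralogue group 3 (Hoxa3, Hoxb3 and Hoxd3) lay between -0.33 and -0.20, and group 8 (Hoxb8, Hoxc8 and Hoxd8) between -0.28 and -0.16. The 4 genes of group 9 lay between -0.23 and -0.08. Group 7 (Hoxa7 and Hoxb7) was the only one with all its genes above 0, at 0.28 and 0.08. Groups 5 and 6 both spanned 0.49, between Hoxa5 at 0.41 and Hoxb5 at -0.09 and between Hoxc6 at 0.25 and Hoxa6 at -0.24. In group 11, which acts in kidney formation, only Hoxa11 differed by more than its error. Group 10 ran from Hoxd10 at -0.22 to Hoxc10 at 0.19. Paralogues 1 to 4 had a median of -0.20 (8 of 10 lower), paralogues 5 to 8 a median of -0.09 (6 of 11 lower, and -0.0026 with brighter probes) and paralogues 9 to 13 a median of -0.08 (8 of 11 lower, and -0.04 with brightest probes). Hox homeodomains are alike between paralogues, and the probe sequences were not used here. Whether a probe also reads a paralogue was not tested.

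**Figure D4:**
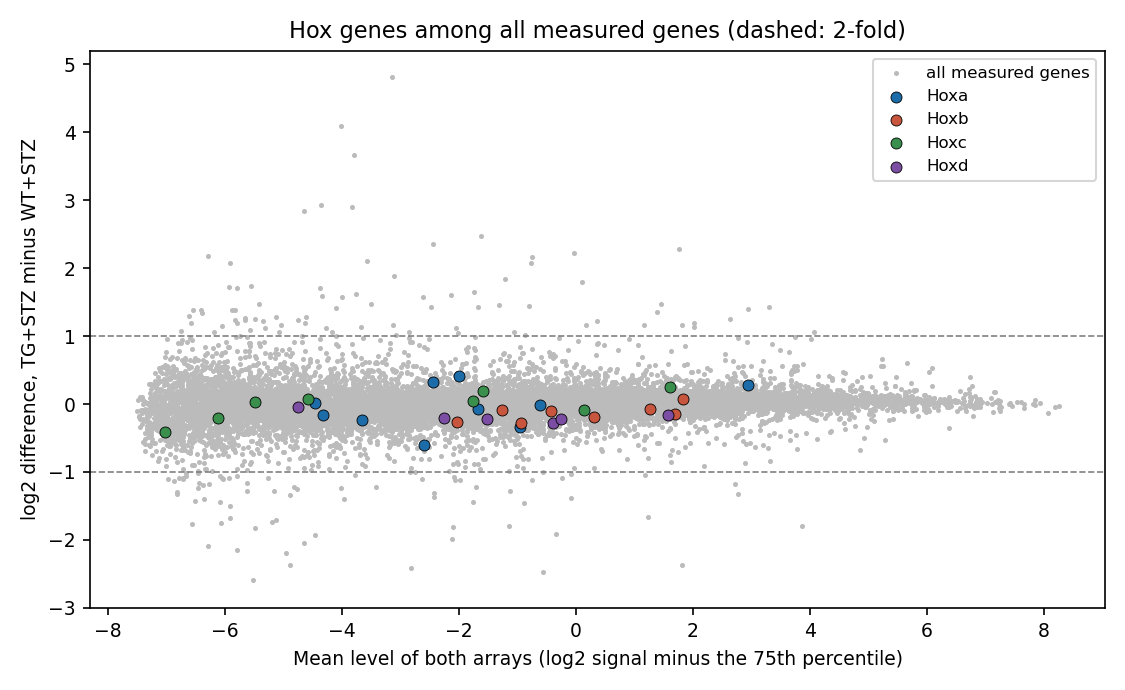
Log2 difference, TG+STZ minus WT+STZ (vertical axis), against the mean level of both arrays (log2 signal minus the 75th percentile, horizontal axis) for 15975 measured genes in grey and 32 Hox genes coloured by cluster. Dashed lines mark 2-fold; 83 genes are at or above the upper line, 75 at or below the lower one, and no Hox gene is among them.

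Genes around the clusters lay on both sides of 0. Evx1 and Evx2, homeobox genes at the ends of Hoxa and Hoxd next to paralogue 13, were not well above background on either array, at 2.59 and 7.30 units in TG+STZ and 2.86 and 3.06 in WT+STZ. Their place in the gene table adjoins the undetected Hoxa13 and Hoxd13. Of the 3 measured Hoxd flanks, Lnpk stood at 0.20 ± 0.22, Mtx2 at 0.16 and Hnrnpa3 at -0.05 ± 0.08, beside 6 measured Hoxd genes between -0.27 and -0.04. Snx10, beyond the end of Hoxa away from Hoxa13, stood at 0.29 ± 0.15. Of 16 measured genes on the list of cluster neighbours, 11 were higher and 5 lower, with a median of 0.05, and -0.04 under normexp, and Nfe2 was furthest below at -0.26 ± 0.28. The noncoding genes of the clusters with a named probe were Hoxa11os and Hoxd3os1. Hoxa11os, antisense to Hoxa11, had 644 units on both the TG+STZ and the WT+STZ array (-0.08), where Hoxa11 stood at 0.32. Hoxd3os1, antisense to Hoxd3, had 425 units in TG+STZ and 413 in WT+STZ (-0.04). By the RefSeq annotation, 19 of the 39 Hox genes overlap another gene and 10 overlap another Hox gene, among them Hoxd3 with Hoxd4 and Hoxb3 with Hoxb4. Which transcript of an overlapping pair a probe reads was not tested.

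Genes that work with or on Hox proteins differed little. The TALE cofactors Meis1 and Meis2 bind DNA together with Hox proteins. Meis1 stood at -0.09 and Meis2 at -0.08, and Pknox2 was the cofactor furthest above 0, at 0.28. All 12 cofactors were measured, 4 higher and 8 lower, with a median of -0.03 that ran from -0.08 to -0.01 over the alternative settings, and Tgif2 stood at -0.15 ± 0.18. Polycomb proteins, which keep Hox genes silent, had a median of 0.01 over 31 genes (18 higher), which was -0.01 under normexp and also below 0 with the percentile taken over detected probes. Ezh2, the methyltransferase of Polycomb, had 473 units in TG+STZ and 385 in WT+STZ (0.22), Cbx7 stood at 0.41 ± 0.28 and Phf1 at -0.17 ± 0.15. Trithorax genes, which keep Hox genes active, had a median of -0.05 over 19 genes (7 higher, and -0.02 under median centring), with Smarca2 at 0.25, Kmt2d at -0.25 ± 0.13 and Kdm6b at 0.11. The probes of Kmt2d stood between -0.85 and 0.13, and Kmt2a had no named probe. No measured gene of these 3 lists reached 2-fold.

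Retinoic acid and Cdx proteins turn Hox genes on in the embryo. Cdx2 and Cdx4 were not well above background on either array, and Cdx1 was so on the TG+STZ array alone, at 11.4 units against 8.82 in WT+STZ. Of the 16 measured genes of the retinoic acid and Cdx list, 6 were higher and 10 lower, with a median of -0.03 that ran from -0.06 to -0.01 over the alternative settings. Cyp26b1, which degrades retinoic acid, was the only one past 2-fold, with 1204 units in TG+STZ against 2962 in WT+STZ (-1.38). Crabp2, which binds retinoic acid in the cell, stood at 0.68 and Aldh1a3, which makes it, at 0.57. On the list of kidney Hox partners and targets, which is not limited to Hox11 targets, Six2 and Ret were not well above background on either array. Eya1 stood at -0.02, Gdnf at -0.34 ± 0.42 near background, and Gfra1, the receptor subunit for Gdnf, at 1.71 ± 0.22 (179 units in TG+STZ against 51.9 in WT+STZ). It was the only one of the 17 measured genes of that list past 2-fold. Of these 17, 9 were higher and 8 lower, with a median of 0.04 that was below 0 under normexp (-0.06), without the filter on dim probes (-0.02) and with brighter probes (-0.03), with Epha3 at 0.49 ± 0.25 and Epha7 at 0.36 ± 0.15.

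**Figure D5:**
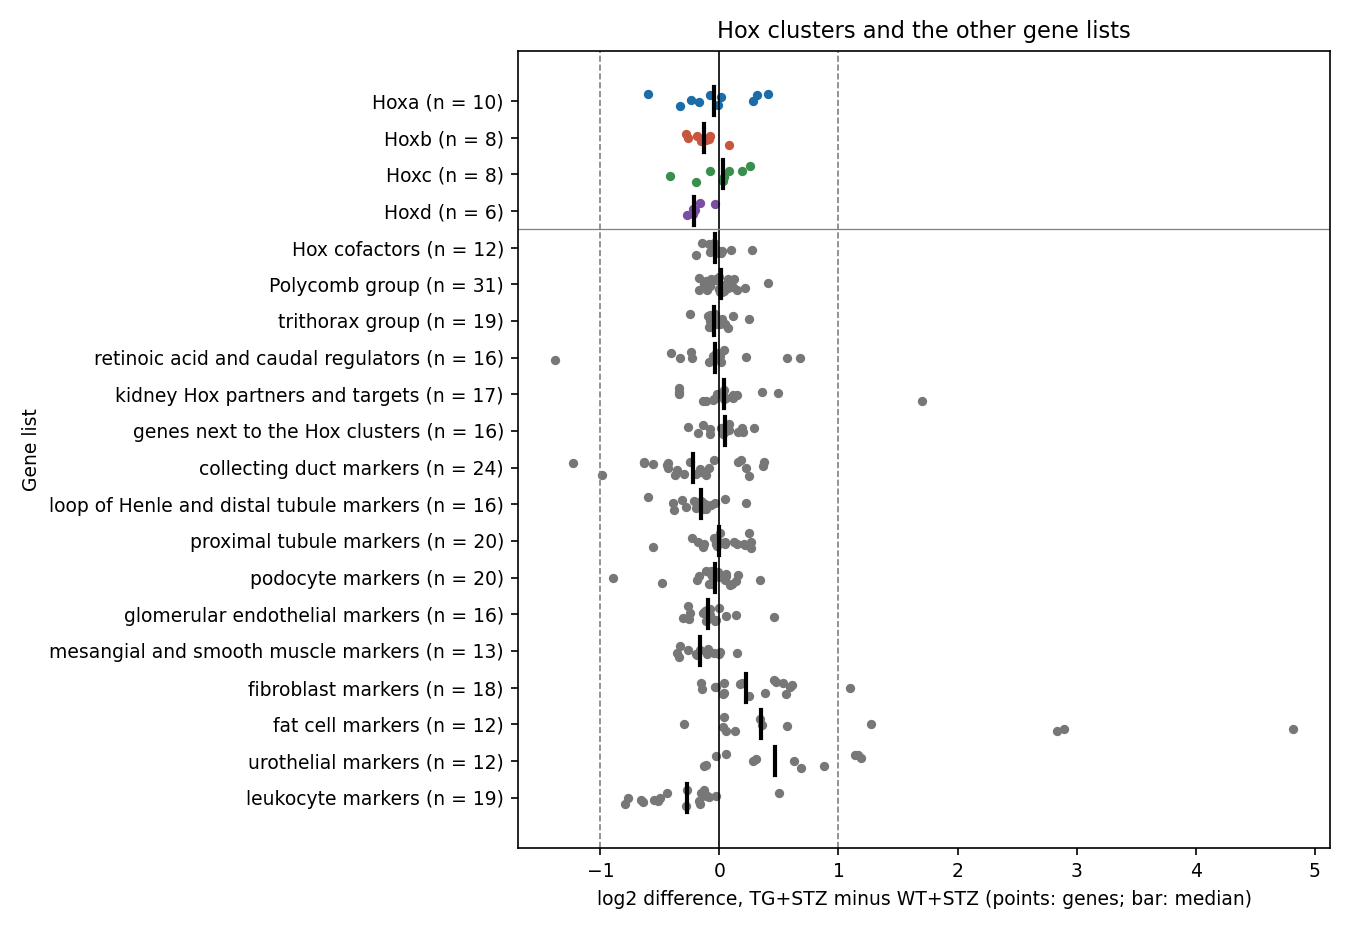
Log2 difference, TG+STZ minus WT+STZ (horizontal axis), of the measured genes of the 4 Hox clusters and of 16 other gene lists (vertical axis, number of genes in brackets). Points are genes, black bars are medians and dashed lines mark 2-fold. The Hoxd median of -0.21 lies among those of leukocyte (-0.27), collecting duct (-0.22), mesangial and smooth muscle (-0.17) and loop of Henle (-0.15) markers. Fibroblast, fat cell and urothelial medians lie above 0. The Hoxc, Polycomb, neighbour, partner and proximal tubule medians change sign under at least 1 other setting.

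The RNA mixed several cell types that use different Hox genes, and their markers differed between the arrays. In mixed tissue, fewer cells of a type and less RNA per cell cannot be told apart. How specific the listed genes are to a cell type was not tested. Collecting duct markers had a median of -0.22 (18 of 24 lower), which was -0.16 with brighter probes. Stc1, Kcne1 and Slc26a4 stood at -1.23 ± 0.33, -0.98 ± 0.29 and -0.63. Stc1 (15.2 units in TG+STZ, 33.8 in WT+STZ) and Kcne1 (16.5 in TG+STZ, 30.9 in WT+STZ) were dim. The signals of this list, not scaled between arrays, summed to 134188 units in TG+STZ and 142195 in WT+STZ. The Hoxb and Hoxd medians were -0.13 and -0.21, while Hoxb7 stood at 0.08. Loop of Henle and distal tubule markers had a median of -0.15 (14 of 16 lower). Tmem207, Trpv5 and Ptger3 stood at -0.60, -0.39 and -0.38 ± 0.14. Their list's unscaled signals summed to 523206 units in TG+STZ and 494519 in WT+STZ, with Umod alone at 306908 and 280541. The 75th percentile, to which these sums are not scaled, was also higher in TG+STZ (2042 units against 1933 in WT+STZ). Leukocyte markers had a median of -0.27 (18 of 19 lower), which was -0.15 with brighter probes and with the brightest probe, and summed to 32312 units in TG+STZ and 32305 in WT+STZ, with Ms4a1, S100a9 and Cd8a at -0.79, -0.76 and -0.66, where Hoxa7 stood at 0.28 and Hoxa9 at -0.08. Fibroblast markers had a median of 0.22 (14 of 18 higher), which was 0.081 under normexp and 0.14 with brighter probes. Clec3b stood at 1.096 ± 0.24, Igfbp6 at 0.61 and Dpt at 0.59 ± 0.22. The unscaled fibroblast signals summed to 109080 units in TG+STZ and 90551 in WT+STZ, of which Ly6c1 was 62479 and 52623. The 2 probes of Ly6c1 stood at -0.11 and 0.18. Fat cell markers had a median of 0.35 over 12 measured genes (11 higher), which was 0.13 with brighter probes and 0.57 under the laxer detection flag. Cfd, Cidea and Retn stood at 4.82 ± 0.22, 2.90 and 2.84 ± 0.24. The unscaled fat cell sum was 109803 units in TG+STZ and 85284 in WT+STZ, with Lpl its largest part (35839.9 and 26673.5). Of the fat markers without a measured difference, Adipoq, Plin1 and Ucp1 were well above background in TG+STZ alone and Lep on neither array. Hoxc10 at 0.19, Hoxc9 at -0.08 and Hoxc8 at -0.20 stand beside these fat values. Urothelial markers had a median of 0.47 (9 of 12 higher), which was 0.25 under normexp and 0.30 with brighter probes, and summed to 14717 units in TG+STZ and 11219 in WT+STZ, with Krt20, Upk1a and Upk3b at 1.19 ± 0.26, 1.16 and 1.14, where Hoxa13, Hoxb13 and Hoxd13 of the lower urogenital tract were not detected in either group.

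Glomerular cells and the proximal tubule were covered by 4 further lists. The unscaled signals of the glomerular endothelial list summed to 64703 units in TG+STZ and 60020 in WT+STZ. Those of the podocyte list summed to 72841 units in TG+STZ and 74525 in WT+STZ. The mesangial and smooth muscle sums were 37640 in TG+STZ and 38737 in WT+STZ. The proximal tubule sums were 3.03e+06 in TG+STZ and 2.86e+06 in WT+STZ. Sums are not ranked between lists. The median of mesangial and smooth muscle genes was -0.17 (11 of 13 lower), with Acta2, Serpine2 and Thy1 at -0.35, -0.34 and -0.33. Glomerular endothelial markers had a median of -0.09 (13 of 16 lower, and -0.16 under normexp), with Esm1 at 0.46, Plat at -0.30 and Sox17 at -0.26 ± 0.14. Podocyte markers had a median of -0.04 (12 of 20 lower), from -0.10 to -0.01 over the alternative settings, with Nphs1 at -0.89, and all 20 were measured, as were all 20 proximal tubule markers. Proximal tubule markers split evenly, 10 higher and 10 lower, with Slc22a8 at -0.56, Slc22a12 at 0.27 and Slc22a6 at 0.26. The part of any of these cell types in the Hox values was not tested. As for the targeted gene, Sirt1 itself had 2977 units in TG+STZ and 2625 in WT+STZ (0.10), and no source used here says whether its probe can read the transgene, so it does not check the labels. Both arrays lay on 1 slide and were read in 1 scan, and 76.26% of gene spots in TG+STZ and 75.04% in WT+STZ were well above background.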

How the data were processed

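Kidney RNA was hybridised to 1-colour Agilent arrays. The authors' deposited scanner tables give processed intensity, its error and flags, as made by Agilent Feature Extraction 10.7.1.1 per the file headers, with background subtracted and no scaling between arrays. Version 10.3.1.1 stands in the submitters' processing notes. The deposited value table held the same intensity at each of 44397 spots (equal with no tolerance, medians 162 in TG+STZ and 158 in WT+STZ).

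Control spots and 177 outlier spots were left out, none of them of a Hox gene. No gene spot was saturated. Log2 processed intensity minus each array's 75th percentile over gene spots was averaged over the spots of a probe. Accessions were named, without versions, through a RefSeq table (GRCm38.p6), which matched 26404 of 39426 probes. The array design is on another build, so no probe coordinates are given. A gene's difference averages those of its probes that both arrays flag as well above background. The software's relative errors of both spots were combined and divided over probes. A threshold of 1.5-fold and 12 alternatives of correction, scaling and filtering were tried. With 1 array per group no test was made, and the number of arrays limits the precision.

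From other lists the 3 members furthest from 0 are named, plus Sirt1, Meis1, Meis2, Eya1, Six2, Gdnf, Kmt2a, Ezh2, Cdx2, Evx1, Evx2 and noncoding genes of the clusters. Mtx2, Hnrnpa3, Ret and the undetected Cdx and fat genes were named after their values were seen. All Hox genes are named too, except that some genes these rules would name are not reported here. Members and lists were chosen with earlier results of these data known. The steps were tested on simulated data. Python 3.11.15, numpy 2.4.6, pandas 2.3.3, matplotlib 3.10.9, R 4.3.3 and limma 3.58.1 were used.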

Additional observations from a re-analysis of the deposited data

How the results depend on the processing

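With 1 array per group the data show no spread between mice, and dim genes such as Hoxc12, Hoxc8 and Hoxc11 are limited by signal over background. No paired analysis was possible because each group has 1 array. Of 32 measured Hox genes, 26 kept their sign under all alternatives that measured them (20 lower, 6 higher). Much of this was fixed in advance. For a gene with 1 probe, the value table, the looser filters, the brightest probe and outlier spots kept return the same value. Centring on another reference shifts all genes alike and can turn only values near 0. The same count over all measured genes was not made. No Hox gene passed 2-fold under any alternative, and at 1.5-fold 1 was lower. The single gene value that moved by more than its error was Hoxb3, at -0.47 with its brightest probe. The causes of the moves below were not tested.

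Normexp background correction with an offset of 50 moved the Hox median to -0.15, the Hoxa median to -0.14, the Hoxc median to -0.080 and the count of higher Hox genes to 6. It moved the medians of kidney partners to -0.062, cluster neighbours to -0.044, podocyte markers to -0.10, glomerular endothelial markers to -0.16, fibroblast markers to 0.081 and urothelial markers to 0.25. Without the filter on dim probes the Hox median was -0.16 with the 7 undetected genes counted in. The probes of those genes read near the negative controls, so this value does not describe measured Hox transcripts alone. With probes brighter than the median alone, paralogues 5 to 8 stood at -0.0026, collecting duct markers at -0.16, fibroblast markers at 0.14, fat cell markers at 0.13, urothelial markers at 0.30 and leukocyte markers at -0.15, a value leukocyte markers also had with the brightest probe. Fat cell markers stood at 0.46 without the filter and 0.57 under the laxer detection flag. The counts of all genes 2-fold higher and lower were 83 and 75, and 36 and 29 under normexp, 295 and 323 without the filter, 202 and 217 under the laxer flag, 36 and 27 for brighter probes and 280 and 306 at 1.5-fold. Centring on the median, on the percentile of detected probes or on spike-ins, quantile and loess normalization, the value table and outlier spots kept moved none of the medians of the lists and clusters beyond their error.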
